A study of Mus musculus with 10 samples.

Results

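Peaks of open chromatin that lay inside very long genes were followed through 4 ATAC-seq peak lists from mouse neural stem cell lines with and without Smchd1. A peak was taken when its summit lay inside an autosomal protein-coding gene of 300 kb or more and over 1 kb from both ends of every protein-coding and every lncRNA gene, in the RefSeq gene table of GRCm38.p6. The table held 533 such genes among 20665 autosomal protein-coding genes, or 2.58%, with a median length of 451 kb and a joint span of 302 Mb. The longest was Ptprd, a receptor-type phosphatase of neurons, at 2271 kb. These genes held 13407 of 126111 autosomal peaks in control females, 10121 of 100826 in deleted females, 10455 of 98744 in control males and 8496 of 86015 in deleted males. Where 4 values are given without names, they follow this order: control females, then deleted females, then control males, then deleted males.

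All cells were C57BL/6 neural stem cell lines grown from Smchd1 fl/fl embryos at E14.5, in which both alleles of Smchd1 carry sites for the Cre recombinase. Females gave 3 control (Smchd1 fl/fl) and 3 deleted (Smchd1 del/del) libraries, and males gave 2 of each. Cre was brought in by a retrovirus that also carried puromycin resistance, selection began at 24 h, and cells were harvested at 7 days. For the control cells the sources used here name no vector. The male samples are male by title and by sex field, but their description says female. The libraries of a group were pooled before peaks were called, which left 1 list per group, no replicate error for any value and no test of any difference.

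ATAC-seq marks DNA that the Tn5 transposase can reach, chiefly promoters and distal enhancers. Smchd1 is a chromatin protein related to the SMC ATPases that keeps the inactive X chromosome and some autosomal gene clusters silent. Very long mammalian genes are mostly introns, many code for synaptic adhesion proteins, ion channels and receptors of neurons, and several lie at common fragile sites, which break when replication is slowed. Peaks inside such genes can mark internal promoters or enhancers, and the accessible site need not act on the gene that holds it.

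A small set of the peaks lay at starts of shorter transcripts, and sequences of some are shown first because the RefSeq promoter table gives their DNA. That table matched 405 of the 533 genes, and 255 of its start sites in 171 of them lay inside the gene by the same distance rule. A peak covered 147, 148, 148 and 143 of the 255 starts in the 4 lists. The 5 sequences that follow are the bases before the internal starts with the strongest peaks in control females, among starts over 10 kb from the start of their gene, and each start had a peak in all 4 lists. Each is given 5′ to 3′ on the strand of the gene, 250 bases up to the base before the start (RefSeq, GRCm38.p6), with CG dinucleotides in capitals.
Pcca (chr14:122534078-122534327, plus strand): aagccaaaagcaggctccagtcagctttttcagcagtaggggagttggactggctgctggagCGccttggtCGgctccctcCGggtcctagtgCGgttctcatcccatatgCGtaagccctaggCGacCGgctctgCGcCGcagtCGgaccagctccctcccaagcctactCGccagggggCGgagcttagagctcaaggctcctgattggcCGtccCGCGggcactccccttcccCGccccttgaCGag
Cdh18 (chr15:23036213-23036462, plus strand): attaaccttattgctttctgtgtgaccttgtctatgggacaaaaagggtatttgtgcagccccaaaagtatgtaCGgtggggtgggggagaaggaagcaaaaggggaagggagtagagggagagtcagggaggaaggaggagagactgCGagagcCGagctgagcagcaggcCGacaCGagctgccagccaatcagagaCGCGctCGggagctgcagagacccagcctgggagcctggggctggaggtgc
Ptprg (chr14:12189693-12189942, plus strand): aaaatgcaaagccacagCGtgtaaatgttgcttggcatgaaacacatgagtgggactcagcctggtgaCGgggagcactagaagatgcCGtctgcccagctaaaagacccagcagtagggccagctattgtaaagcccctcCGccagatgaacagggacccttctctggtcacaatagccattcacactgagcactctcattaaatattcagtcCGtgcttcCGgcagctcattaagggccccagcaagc
Hdac9 (chr12:34528890-34529139, minus strand): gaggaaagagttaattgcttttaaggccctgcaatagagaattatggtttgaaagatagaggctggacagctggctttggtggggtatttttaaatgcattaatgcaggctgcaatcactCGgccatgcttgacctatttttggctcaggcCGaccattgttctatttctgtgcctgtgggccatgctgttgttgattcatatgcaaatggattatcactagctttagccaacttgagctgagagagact
Ank2 (chr3:127409059-127409308, minus strand): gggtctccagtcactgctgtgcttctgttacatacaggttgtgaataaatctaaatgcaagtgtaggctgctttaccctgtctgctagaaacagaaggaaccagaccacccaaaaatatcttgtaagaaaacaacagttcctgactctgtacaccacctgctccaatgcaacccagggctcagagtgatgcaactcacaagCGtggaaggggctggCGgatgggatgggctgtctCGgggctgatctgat

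The Pcca start, in the gene of a propionyl-CoA carboxylase subunit, lay 50 kb into the gene, and its stretch held 17 CG dinucleotides, 2 GC boxes and 1 CCAAT box. Its peak ranked 159, 199, 47 and 207 in the 4 lists, where rank 1 is the highest −log10 q of a list. The start inside Cdh18, a cadherin of neurons, lay 488 kb in, and its peak ranked 441, 1276, 1207 and 2611 in the same order. The stretch before it held 8 CG dinucleotides and 1 CCAAT box. The Ptprg start, 637 kb into a receptor-type phosphatase gene, had a peak of rank 1939 in control females and 8485 in deleted females, against 2934 and 2870 in the male lists. The starts inside Hdac9, a histone deacetylase, and Ank2, the ankyrin of excitable cells, held 2 and 3 CG dinucleotides and had peaks of rank 1964 to 4411 in all 4 lists. The sequences therefore ranged from rich to poor in CG, with a strong peak at each in every list.

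Letters were compared over the 300-base windows of the promoter table, which reach 50 bases past the start. The median GC content was 58.7% in the 131 windows with a peak in all 4 lists, 46.0% in the 97 with none and 52.7% in all 32851 promoter windows. The observed over expected ratio of CG dinucleotides had medians of 0.54, 0.25 and 0.38 in the same order. The GC box (GGGCGG or its reverse complement CCGCCC) stood in 45.0% of windows with a peak in all 4 lists, 12.4% of those with none and 35.7% of all promoters. The TATA box (TATAAA or TTTATA) stood in 6.87%, 18.6% and 13.6%, and the CCAAT box (CCAAT or ATTGG) in 39.7%, 34.0% and 37.4%. Internal starts with a peak in every list were thus richer in CG and GC boxes than internal starts without one, and a letter match is not evidence that a factor binds.

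Peaks at internal starts stood above the other peaks inside these genes. Among the 88159 strongest peaks of each list, their median rank in control females was 18729 against 48800 for the rest, their median width 706 bp against 323 bp, and their median fold enrichment 5.75 against 4.10. All 4 lists shared 92.9% of them, against 67.4% of the rest. They made up only 1.55% of the peaks inside very long genes, and 3 of the 50 strongest. Nearly all of the peaks described here thus lay away from the internal starts that the table gave for these genes. Starts of other genes in the table were not compared.

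The labelled cell type was checked by peaks at gene ends. Of 14 neural stem cell markers, 12 to 14 had a peak within 1 kb of an end in each list, and 8 to 10 of 10 neuron markers, 4 or 5 of 6 astrocyte markers and 3 or 4 of 6 oligodendrocyte markers did. Endothelial and fibroblast markers had one at 4 to 7 of 8, so open ends do not by themselves separate these cell types. Of 7 microglia and blood markers, only Spi1 had one, in every list. The lists rested on 144613215, 139318421, 91734730 and 74674218 tags after filtering.

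Peaks inside very long genes were weaker and narrower than peaks at gene ends and similar in both respects to other distal peaks. In control females their median fold enrichment over local background, the authors' own value, was 3.36, against 4.52 at gene ends, 3.17 inside shorter coding genes and 3.24 elsewhere. Their median width was 268 bp, against 577 bp at gene ends, 273 bp inside shorter genes and 263 bp elsewhere. In the other lists the median width inside very long genes was 262 bp in deleted females, 270 bp in control males and 263 bp in deleted males. Very long genes held 44.5, 33.6, 34.7 and 28.2 peaks per Mb in the 4 lists. Shorter coding genes held more per Mb in every list, at 57.2, 44.5, 42.6 and 37.8.

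Peak number per gene followed length only in part. The median gene held 22 peaks in control females, with quartiles of 14 and 33, and 5 of 533 genes held none. Across the 533 genes, which share one list and are not independent replicates, Pearson's r between peak number and length was 0.46 and Spearman's rho 0.36, and rho between peaks per Mb and length was −0.27. Genes of 300 to 500 kb held 52.7 peaks per Mb, genes of 500 to 1000 kb 42.5 and longer genes 32.2. Just below the length limit, AW554918, Atp2b2 and Akap13 (298.6, 298.8 and 299.1 kb) held 6, 21 and 18 peaks in control females. Just above it, Zfp423, Kcnq3 and Jazf1 (300.2, 300.3 and 300.6 kb) held 32, 13 and 23.

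**Figure D1:**
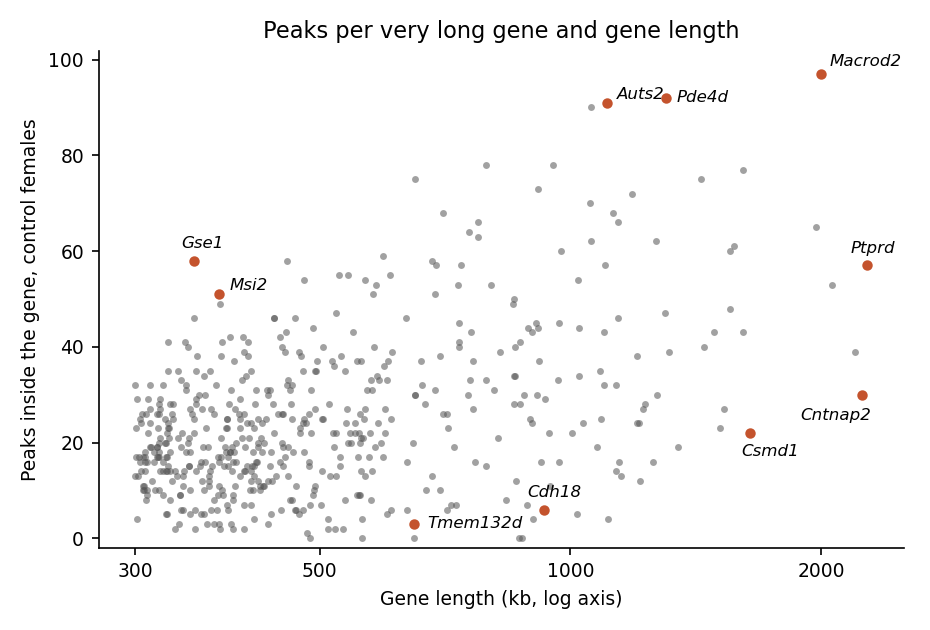
Each point is 1 of 533 very long genes, with its length in kb on a log axis and its number of internal peaks in control females, as deposited, with the named genes in orange. Macrod2 (97 peaks) and Pde4d (92) stand at the top, while Cntnap2, of 2241 kb, held 30 and Tmem132d, of 650 kb, held 3.

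The genes with most peaks were a mixed group. Macrod2, an ADP-ribose hydrolase, held 97, 58, 74 and 44 peaks in the 4 lists. Pde4d, a phosphodiesterase of cyclic AMP, held 92, 64, 74 and 58 in the same order, and Auts2, a transcriptional regulator, 91, 65, 74 and 56. The next were Rbms3 and Sox5, an RNA-binding protein and a transcription factor, with 90 and 78 in control females, then Ptprn2 (78), the presynaptic adhesion gene Nrxn3 (77), the glypican Gpc5 (75), Nav2 (75) and the fragile-site gene Wwox (73). Per Mb, Gse1 led with 164 in control females, before Msi2, an RNA-binding protein of stem cells, with 135. Arid1b, a subunit of the BAF remodelling complex, had 130, Fry 129 and the cadherin Cdh4 127. The control female list, the longest of the 4, gave the highest number for each of these genes, so genotypes were compared only after the lists were brought to equal length.

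Of the genes, 3 had no peak in any list: Gm38666, Gm38667 and Schip1. Each lies inside a longer entry (Gm37013 or Iqschfp), and a summit inside several very long genes was counted once, for the longest. Gm37013 spans 54 protein-coding genes of the clustered protocadherins, a family of related copies. Whether reads there were shared between copies was not tested.

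The strongest peaks inside very long genes were strong in all 4 lists. The first lay in Cmss1 (chr16:57391077-57391748), with ranks of 10, 10, 12 and 11 and a fold enrichment of 12, 12.9, 14.3 and 15.8. A peak 114 kb into Nalcn, the sodium leak channel of neurons (chr14:123513321-123513762), ranked 16, 22, 23 and 166. A peak 134 kb into Gphn, the gephyrin scaffold of inhibitory synapses (chr12:78350818-78351223), ranked 29, 17, 40 and 20. Peaks in Grik1, Nrxn3, Sgcz, Macrod2, Kcnh7 and Rabgap1l were also among the 10 strongest, with ranks of 35 to 113 in control females and no rank beyond 777 in any list.

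Along the gene, peaks were spread widely. In control females, 59.3% lay over 100 kb from the nearer end of the gene, with a median distance of 125 kb and a largest one of 1128 kb. The other 3 lists gave 58.7%, 59.9% and 58.3%. Where the promoter table gave a strand, 47.9% of the 10267 peaks of control females lay nearer to the start than to the end of the gene. With the gene cut into 10 equal stretches, the share ran from 8.93% in the third to 11.6% in the last. Neighbouring peaks of a gene were a median of 10.6 kb apart in control females, and 9.91% of gaps passed 50 kb.

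To compare genotypes, each list was reduced to its 88159 strongest peaks by the authors' −log10 q, which is as many as the shortest list held. Candidates for a loss were the strongest 44079 peaks of a control list, and those without any overlap, of even 1 bp, with the 88159 peaks of the deleted list of that sex were called lost. Gained peaks were called by the same rule with the lists exchanged. Intervals are exact 95% Clopper-Pearson intervals and cover counting error only.

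Few strong peaks inside very long genes were called in either direction. In females, 26 of 4083 candidates were lost, or 0.637% (0.416 to 0.932), where 0.45% of all autosomal candidates were called. Gained peaks numbered 69 of 4021, or 1.72% (1.34 to 2.17), where the autosomal share was 1.11%. In males, 77 of 4082 were lost, or 1.89% (1.49 to 2.35), against an autosomal share of 1.08%, and 40 of 3853 were gained, or 1.04% (0.743 to 1.41), against 0.831%. Of the 4 shares, female gains and male losses lay above those of all other autosomal peaks, 1.04% and 0.993%, while the intervals of the others held the background.

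**Figure D2:**
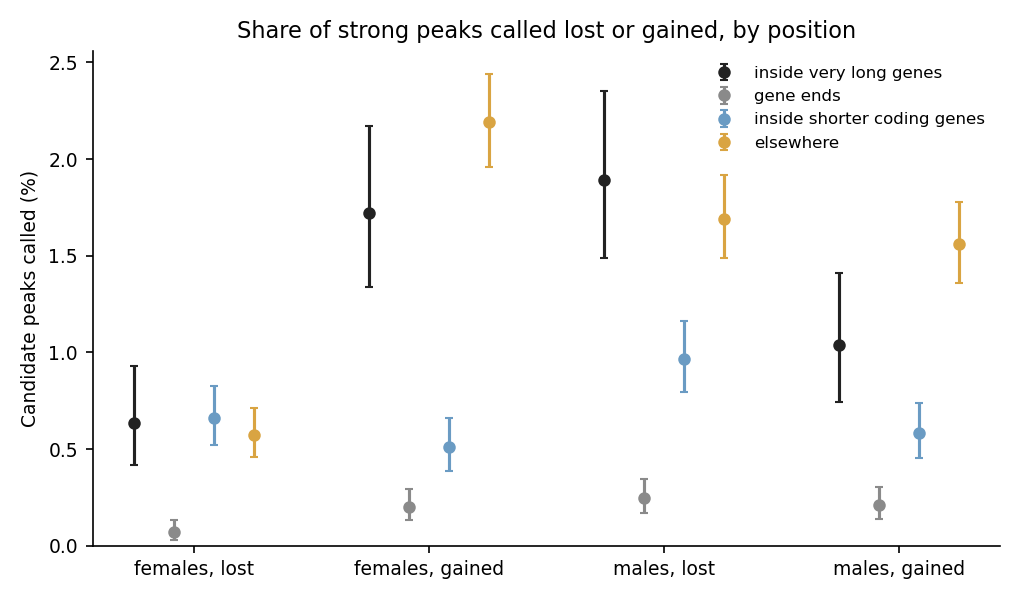
Points give the share of candidate peaks, in percent, that were called lost or gained in each sex, by the position of the peak, with exact 95% intervals (counting error only). Peaks inside very long genes lie above those at gene ends in each column, and below peaks elsewhere for gains in both sexes.

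The shares differed by the position of the peak. Gene ends were called least, at 0.0691% and 0.200% for losses and gains in females and 0.245% and 0.211% in males. Peaks inside shorter coding genes were gained in 0.508% of candidates in females, below the 1.72% inside very long genes, and in 0.583% in males. Peaks elsewhere were gained in 2.19% and 1.56%. Losses inside shorter coding genes were 0.66% in females and 0.968% in males, and elsewhere 0.575% and 1.69%. Inside very long genes they were 0.637% and 1.89%, so the male share was near that of peaks elsewhere. Had all other autosomal peaks stood at the ranks of the peaks inside very long genes, their rates would give 46.8 gains and 21.1 losses in females and 36.4 gains and 46.9 losses in males, beside the 69, 26, 40 and 77 counted. With peaks elsewhere as the reference the numbers were 82.7 gains and 22.3 losses in females and 57 gains and 64 losses in males. With peaks inside shorter coding genes they were 19.3 and 26.3 in females and 22.1 and 37.9 in males. At these ranks the rate of peaks elsewhere was 2.06% for female gains and 1.57% for male losses. Both lie within the counting intervals inside very long genes, 1.34 to 2.17 and 1.49 to 2.35. For male gains it was 1.48%, above the interval of 0.743 to 1.41. Female losses were near those of shorter coding genes, and male losses lay above those of shorter coding genes and of all other autosomal peaks. The excess of losses in males over all other autosomal peaks depended on the value used for ranking. With ranking by pileup in place of −log10 q, the log2 ratio of the share inside very long genes over the share of other peaks was −0.45 for male losses, −0.45 for male gains, −0.55 for female losses and 0.27 for female gains. By −log10 q these were 0.93, 0.36, 0.56 and 0.72.

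The same rule was applied between the sexes within a genotype. Between the control lists, 6 peaks inside very long genes, or 0.147%, were strong in females and absent in males, where 0.114% of all candidates were called. The reverse held for 4, or 0.098%, where 0.0861% were called. Between the deleted lists the counts were 47 and 20, or 1.17% and 0.519%, with 0.768% and 0.461% of all candidates called. The larger counts between the deleted lists were thus seen over all autosomal candidates too.

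Gained peaks were not spread evenly over the genes. The 533 genes were ordered by their mean number of internal peaks per Mb over the 4 equal-length lists and split into 4 groups. The sparsest 134 genes, with 0 to 18.6 peaks per Mb, held 48 of the 69 gained peaks in females and 19 of the 40 in males. They held only 12.3% and 10.8% of the candidates. Of their candidates 9.72% (7.25 to 12.7) were gained in females and 4.57% (2.77 to 7.04) in males, against 0.595% (0.369 to 0.909) and 0.611% (0.379 to 0.932) in the other genes. Among losses, 4 of 390 candidates of the sparsest genes were called in females, or 1.03% (0.28 to 2.61), against 0.596% (0.374 to 0.901) in the other genes. In males 4 of 394 were called, or 1.02% (0.277 to 2.58), against 1.98% (1.55 to 2.48). The split rests on the same lists as the calls and was chosen after their values were seen. It is a description, and a gain requires that the control list has no peak at the site.

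The excess was present at matched ranks and was spread over several genes. The candidates in the sparsest genes had a median rank of 23749.5 in deleted females, against 24478 in the other genes. Among ranks 22040 to 33059, 16 of 128 candidates in the sparsest genes were gained in females, or 12.5% (7.32 to 19.5), and 2 of 1015 in the others, or 0.197% (0.0239 to 0.710). In males the same ranks gave 5 of 120 and 2 of 983. The 48 gained peaks of females lay in 26 genes, with at most 4 in any of them, and the 19 of males in 14 genes. When genes were split by the control list of the other sex, the sparsest group held 53 of the 69 gained peaks in females and 21 of the 40 in males. The control lists were nearly alike, with 0.147% and 0.098% of candidates inside very long genes called between them. This split is therefore not independent of the calls either. Without chromosomes 5 and 7, the sparsest group held 67.3% and 41.9% of the gained peaks, beside 69.6% and 47.5% with them. With lists of 44079 peaks it held 44.2% and 33.3%, and with all 88159 peaks as candidates 23.4% and 18.2%.

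**Figure D3:**
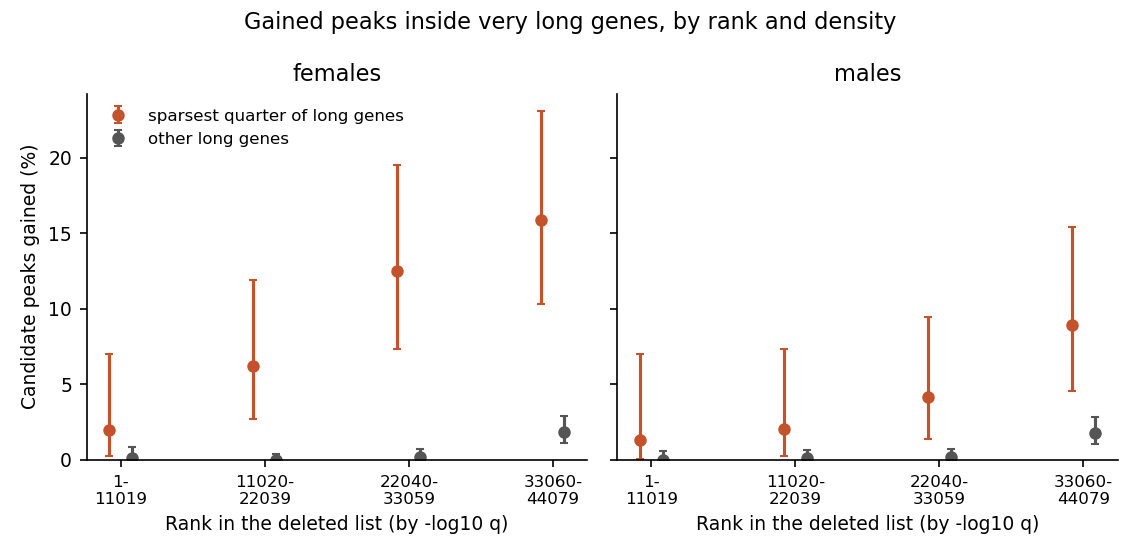
Points give the share of candidate peaks inside very long genes, in percent, called gained in females (left) and males (right), by rank in the deleted list, with exact 95% intervals (counting error only). At ranks 33060 to 44079 the sparsest genes reached 15.9% in females and 8.94% in males, against 1.84% and 1.79% in the other long genes.

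Peak number was also compared between these groups of genes. The groups were formed from these same counts, which include the gained peaks, so the ratios are no separate support. In equal-length lists the sparsest genes held 955, 1082, 977 and 974 peaks. The log2 ratio of deleted over control was 0.18 (0.05 to 0.31) in females and 0.00 (−0.13 to 0.13) in males. The 3 denser groups had log2 ratios of −0.08, −0.08 and −0.09 in females and −0.18, −0.13 and −0.05 in males. Each interval takes its pair of counts as independent, which they are not, since most peaks are common to both lists.

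The strongest gained peak in both sexes lay 254 kb into Caln1, which codes for a neuronal calcium-binding protein (chr5:130623182-130623660). Its rank was 8428 in deleted females and 8050 in deleted males, with a fold enrichment of 7.72 and 10.6. Control females had only a weaker peak there, with a fold of 2.54 and a rank of 110521 in the full list, and control males had none. The gene as a whole held 3, 7, 2 and 8 peaks in the equal-length lists.

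Tmem132d, a transmembrane protein of the nervous system, had the clearest group of gained peaks. The gene held 2, 10, 3 and 15 peaks in the equal-length lists. Its peak at chr5:128203860-128204583 had folds of 6.67 and 7.26 in the deleted females and males, and no peak in either control list. A further peak, 141 kb from the nearer end at chr5:127924148-127924459, had folds of 6.24 and 7.87 and was likewise absent from both control lists. The peak at chr5:128026998-128027427 was gained in females only, with a fold of 6.58 against 2.86 in controls, and males had a peak in both genotypes, with folds of 6.87 in deleted and 3.35 in control cells.

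Both sexes shared 20 gained peaks, which were 29.0% of those of females and 50% of those of males. Over all autosomal peaks 133 were shared, or 28.2% and 37.3%. Without chromosomes 5 and 7, 13 gained peaks inside very long genes were shared. The 20 lay in Caln1, Tmem132d, L3mbtl4, Xkr4, Mtus2, Rbfox1, Hs3st4, Zfp993, Sgcd, Ano2, Csmd1, Snrpn, Cntnap5b, Cpne4, Camta1 and Kcnb2. Among these are the splicing factor Rbfox1, the potassium channel Kcnb2, the chloride channel Ano2, the heparan sulfate sulfotransferase Hs3st4 and the sarcoglycan Sgcd. The peak 595 kb into Rbfox1 had folds of 5.01 and 6.02 in the deleted females and males, and weaker peaks of 2.46 and 2.87 in the controls. The peak 348 kb into Sgcd had folds of 5.26 and 5.72 in deleted cells and 2.78 and 2.75 in controls. In L3mbtl4, Xkr4, Mtus2, Ano2, Csmd1, Snrpn and Camta1 neither control list had a peak at the site.

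**Figure D4:**
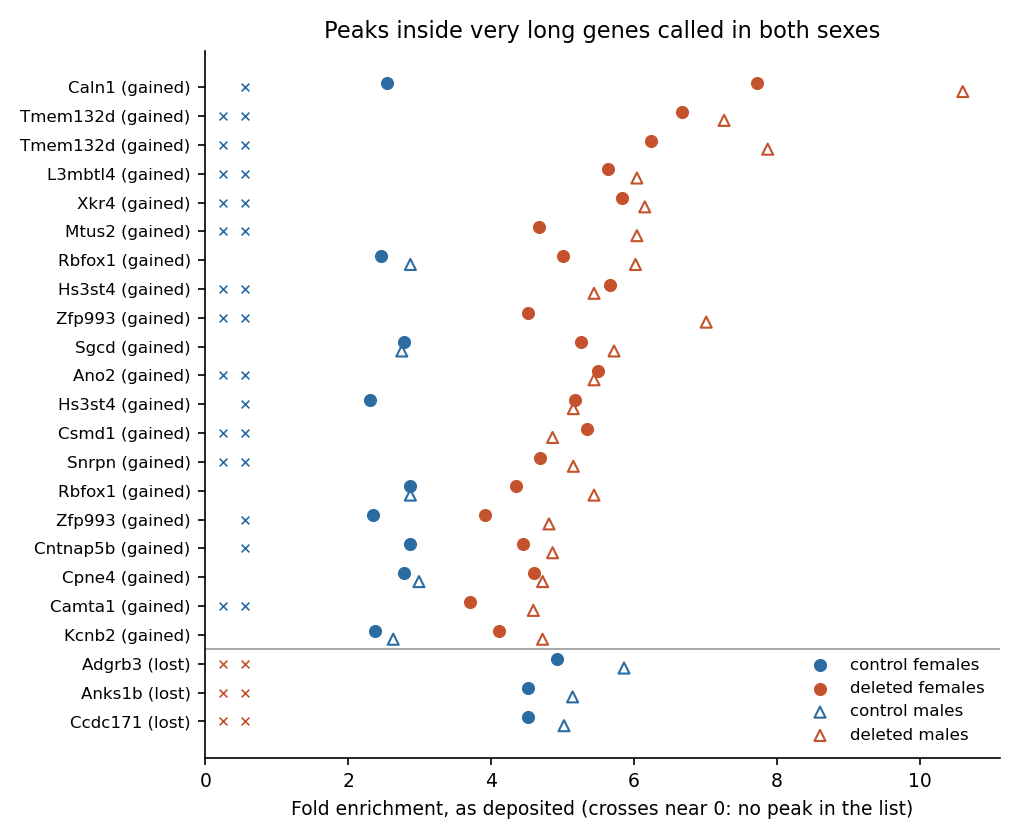
The authors' fold enrichment is plotted for the 20 gained and 3 lost peaks called in both sexes, filled circles for females and open triangles for males, blue for control and red for deleted. Crosses near 0 (left for females, right for males) mark a list with no peak. At each gained peak both deleted values lie above any control value, which follows largely from the calling rule. That rule leaves a control list only peaks ranked beyond 88159 at these sites.

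Both sexes shared 3 lost peaks, in Adgrb3, Anks1b and Ccdc171, or 11.5% of those of females and 3.90% of those of males. Over all autosomal peaks 14 were shared, or 7.25% and 3.02%. These counts depended on the processing: as deposited, 38 lost and 12 gained peaks were shared, and 21 lost ones were shared when a peak had to overlap by 50% to count as present. The peak 415 kb into Adgrb3, an adhesion receptor of synapses (chr1:25419441-25419690), had folds of 4.92 in control females and 5.86 in control males and was in neither deleted list. The peaks in Anks1b and Ccdc171 had folds of 4.52 and 4.52 in control females and 5.14 and 5.02 in control males, and were also absent from both deleted lists. Lost peaks stood low among the candidates, with a median rank of 40857 in females and 41311 in males, and none reached rank 22039. Gained peaks reached it 11 times in females and 4 times in males. The other autosomal peaks showed the same, with 0 and 1 losses and 46 and 21 gains up to that rank.

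The strongest losses of females lay in Lrrtm4, a synaptic adhesion gene (rank 27368), then Gmds, Sema3a and Tshz2. The Lrrtm4 peak had a fold of 5.79 in control females and no peak in deleted females, while males had peaks of 4.07 in control and 6.01 in deleted cells. In males the strongest were in Spag16, the FGF family gene Fgf14, Adgrb3, Nalcn and Ncam2. The peak lost in males inside Nalcn (rank 32763, fold 5.86) stood in both female lists, with folds of 5.32 in control and 4.93 in deleted cells. Of the peaks lost in females, 18 of 26 were in the deleted male list, which needed no shortening. Of those lost in males, 51 of 77 were in the deleted female list as deposited, which also holds weaker peaks beyond rank 88159. Only 3 losses were called in both sexes.

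Of the gained peaks of females, 25 of 69 were in the control male list, and of those of males 28 of 40 were in the control female list, as deposited. A weaker control peak stood at 26 of the 69 and 13 of the 40 sites. Calls that rest on absence from a list of fixed length therefore include peaks that changed rank as well as peaks with no counterpart.

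Snrpn, which codes for a splicing protein in the imprinted region linked to Prader-Willi syndrome, held 4, 11, 4 and 12 peaks in the equal-length lists. It had 3 gained peaks in females and 1 in males. One of them lay at an internal start, the only gained peak of females that did. The 250 bases before that start are shown beside those of a second internal start of the gene, which had no peak in any list, since the pair differ in accessibility and not much in letters (minus strand, GRCm38.p6, CG in capitals).
Snrpn, peak in deleted cells (chr7:60140226-60140475): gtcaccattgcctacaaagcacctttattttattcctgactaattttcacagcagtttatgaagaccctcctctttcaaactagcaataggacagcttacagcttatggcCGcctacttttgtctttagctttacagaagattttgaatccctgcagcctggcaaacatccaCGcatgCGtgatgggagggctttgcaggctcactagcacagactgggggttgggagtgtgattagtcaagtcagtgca
Snrpn, no peak (chr7:60047979-60048228): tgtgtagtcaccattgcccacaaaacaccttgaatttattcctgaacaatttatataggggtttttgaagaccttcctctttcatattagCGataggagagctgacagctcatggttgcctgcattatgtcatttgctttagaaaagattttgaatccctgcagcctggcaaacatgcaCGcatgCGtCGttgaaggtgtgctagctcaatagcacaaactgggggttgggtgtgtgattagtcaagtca

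The first start had a peak of rank 30415 and fold 4.76 in deleted females and of rank 45793 and fold 4.58 in deleted males. Neither control list had a peak there. The male peak missed the limit of 44079 for a candidate. The sequences were identical at 205 of 243 aligned positions, or 84.4%. Whether reads were assigned to the right copy was not tested, and peaks inside Snrpn are uncertain in that respect.

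Per gene, the direction was mixed. In females 270 genes held fewer peaks in deleted than in control cells, 178 more and 85 the same number, and in males 299 held fewer, 175 more and 59 the same. Fewer in both sexes were 183 genes and more in both were 84, and 134 moved in opposite directions. Over all very long genes the log2 ratio of deleted over control, relative to all other autosomal peaks, was −0.05 (−0.09 to −0.01) in females and −0.11 (−0.15 to −0.07) in males. With the same correction, peaks inside shorter coding genes gave −0.06 (−0.08 to −0.03) in females and 0.05 (0.03 to 0.08) in males. Peaks elsewhere gave 0.04 (0.02 to 0.07) and −0.05 (−0.07 to −0.03), so each sex had a fall in another class too. By length the males gave −0.05 for genes of 300 to 500 kb, −0.11 for 500 to 1000 kb and −0.21 for longer genes, before that correction, and the females −0.06, −0.05 and −0.06. Depth differed in the same direction, with 91734730 tags in control and 74674218 in deleted males, and its part in the ratios was not tested.

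The genes with the largest surplus in deleted cells over both sexes were Zfp993, Rbfox1, Csmd1 and Tmem132d, followed by Asic2 and the guidance cue gene Slit3 with 17 more peaks each. Zfp993, a zinc finger gene, held 22, 41, 28 and 35 peaks in the equal-length lists. Its span holds 11 other loci with Gm symbols, and zinc finger genes of this kind have near-identical copies, so its peaks are uncertain. Rbfox1 held 21, 33, 23 and 33 peaks. Csmd1, a complement regulator, held 16, 29, 12 and 20, and the acid-sensing channel Asic2 15, 29, 20 and 23. Slit3 held 20, 31, 20 and 26.

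Among the largest deficits were those of Macrod2, which held 62, 55, 63 and 44 peaks, and of Robo2, Gpc6 and Wwox. Robo2, a receptor for Slit guidance cues, held 37, 28, 38 and 24. Gpc6 held 53, 48, 54 and 37, and Wwox 47, 39, 49 and 36. Few of these missing peaks were strong enough to be called: Robo2 had 0 lost calls in females and 2 in males, and Macrod2 0 and 2.

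**Figure D5:**
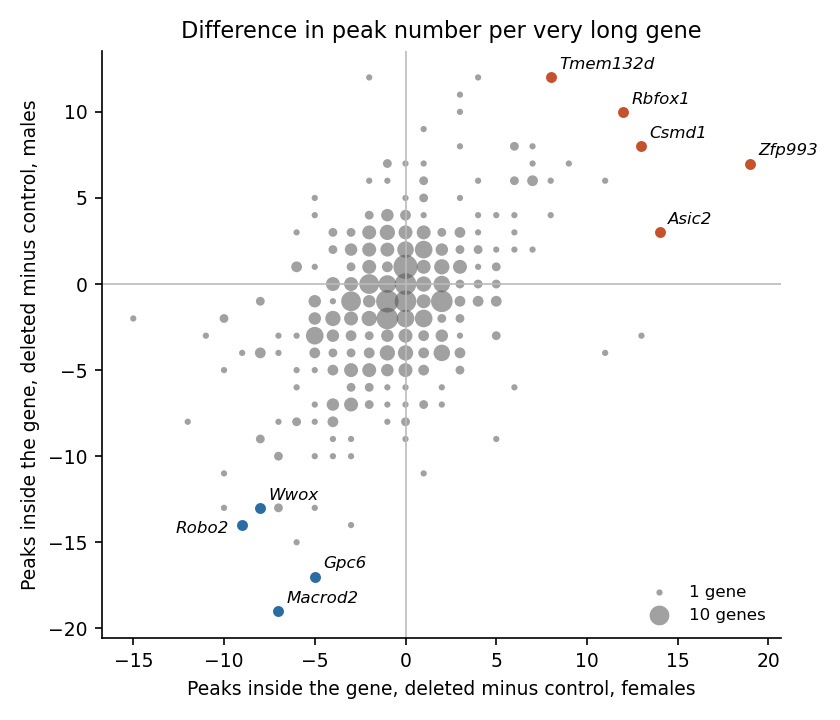
Each circle is placed by the difference in internal peak number, deleted minus control, in females (x) and males (y) in equal-length lists, and its area gives the number of genes, 533 in all, with 5 of the largest surpluses in orange (Slit3 ties with Asic2 and is not coloured) and 4 of the largest deficits in blue. Zfp993 lies at 19 and 7, Tmem132d at 8 and 12, and Macrod2 at −7 and −19.

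The role lists mostly lay near all very long genes, whose log2 ratios of deleted over control were −0.05 in females and −0.10 in males on this scale. The 16 axon guidance genes, among them Robo2, Robo1, Dcc and Unc5c, held 311, 283, 325 and 263 peaks, with a log2 ratio of −0.14 (−0.37 to 0.10) in females and −0.31 (−0.55 to −0.07) in males. In males 13 of the 16 held fewer and 3 more. The 36 synaptic and neural adhesion genes, among them Nrxn3, Ptprt and Negr1, gave −0.10 (−0.24 to 0.04) and −0.19 (−0.33 to −0.04), with 25 genes lower in each sex. The female intervals of both lists held 0, and the male ones held the value of all very long genes.

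The 28 ion channel genes, led by Dpp6, Trpm3, Cacna1c and Ryr3, held 379, 426, 412 and 388 peaks, with a log2 ratio of 0.17 (−0.03 to 0.37) in females and −0.09 (−0.29 to 0.12) in males. In females 15 of them held more, 6 fewer and 7 the same. Of their candidates in females, 9 of 186 were gained, or 4.84%, beside 1.72% inside all very long genes and 1.11% of all autosomal ones. This was the highest share of any role list in females, where the others ran from 0.208% (kinases, phosphodiesterases and scaffolds) to 3.01% (cadherins and catenins). In males 3 of 165 were gained, or 1.82%, beside 1.04% inside all very long genes and 0.831% of all autosomal candidates. The sign of the log2 ratio in females depended on bringing the lists to equal length: with all peaks as deposited the ratio was −0.20, where all long genes gave −0.41. Among peaks with −log10 q of 10 or more it was −0.14, where they gave −0.42. The 16 glutamate and GABA receptor genes, among them Grid1, Grin2b and Grm5, gave 0.08 (−0.21 to 0.37) and 0.01 (−0.28 to 0.31).

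The 40 transcription factors and RNA-binding regulators, led by Auts2, Sox5, Zfhx3 and Esrrg, had the highest density of the lists, 62.7 peaks per Mb in control females, and log2 ratios of −0.05 and 0.04. The 50 kinases, phosphodiesterases and scaffolds (Pde4d, Arhgap26, Dlg2 and Anks1b first) gave −0.09 and −0.14, with 32 and 36 genes lower. The 24 growth factor signalling genes gave −0.05 and −0.17, the 13 cadherins and catenins −0.02 and −0.04, and the 29 cytoskeleton and matrix genes −0.18 and −0.05. The 30 common fragile site genes, with Macrod2, Auts2, Wwox and Cdh13 first, gave −0.09 (−0.23 to 0.05) and −0.16 (−0.30 to −0.02), with 23 genes lower in males and 5 higher. The lists overlap one another, and Macrod2, Auts2 and Wwox each weigh heavily in the last. Some placements are debatable, such as Rbms3, first in cytoskeleton and matrix, and Ptprn2, first in growth factor signalling.

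Most of the peaks were common to the 4 lists. Merged over the equal-length lists, there were 11878 regions inside very long genes, of which 51.7% (50.8 to 52.6) were in all 4 lists and 23.2% in 1 list, against 56.1% and 21.9% of 99163 other autosomal regions. Both control lists alone shared 589 regions, or 4.96% (4.58 to 5.36), and both deleted lists alone 302, or 2.54% (2.27 to 2.84). Elsewhere on the autosomes these patterns made up 3.53% (3.41 to 3.64) and 2.66% (2.56 to 2.76). Regions present in both control lists only were thus a larger share inside very long genes than in the rest, while regions in both deleted lists only were a like share. The rest includes gene ends, which were stronger and seldom called. These patterns were not compared with other distal peaks alone or at matched ranks. Among the strongest 22039 peaks of control females, all 1763 peaks inside very long genes were in every list, while 23.2% of those ranked beyond 66119 were.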

How the data were processed

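ATAC-seq was run on 10 libraries, and 4 peak lists were used, 1 per group. The build mm10 and the tools Bowtie2 2.2.5 and Trim Galore 0.4.0, besides MACS2, Picard, SAMtools, bcl2fastq and edgeR, are those of the submitters' processing notes. Peaks were called by MACS 2.1.0.20140616 without a control sample, on 1 pooled alignment per group, with reads shifted by 75 bp and extended to 150 bp and a limit of 0.05 on the q-value, per the file headers. The pileup (a signal height), the −log10 q and the fold enrichment, a ratio over local background, are the values the authors deposited with each peak, and they served only to describe and rank peaks within a list. A list of a deeper pool holds more weak peaks, so numbers as deposited cannot be compared between groups.

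Ranks were taken over chromosomes 1 to 19, X and Y, and positions were taken from the RefSeq table of GRCm38.p6, the sequence build of mm10, whose promoter table gave strand and sequence. The peaks, the role lists and the rule for naming genes were chosen with earlier results of these data known. That rule named the 10 genes with most peaks and the 5 densest, the 5 largest rises and falls in both sexes, the 8 strongest calls per sex and direction, those called in both sexes, the 10 strongest shared peaks, up to 4 genes per list and the genes at the length limit. A few genes that the rule named are not reported here. The split by density and the internal starts were added after values were seen. With 1 pooled list per group no test could be run, and intervals (exact binomial, for ratios conditional on the sum) cover counting error only. The calling was checked on a copy of the control female list with known peaks removed and noise added. The positions were checked by direct lookup for a random sample of its autosomal peaks. The work used scipy 1.17.1, numpy 2.4.6, pandas 2.3.3 and matplotlib 3.10.9 under Python 3.11.15.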

Additional observations from a re-analysis of the deposited data

Results flagged for a closer look

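The balance of gained and lost peaks inside very long genes had opposite signs in the sexes under the rule used. In females 69 were gained and 26 lost, a log2 ratio of 1.41 (0.74 to 2.12), and in males 40 were gained and 77 lost, a log2 ratio of −0.94 (−1.53 to −0.38). Over all autosomal peaks the log2 ratios were 1.29 and −0.38. The signs depended on the processing. In females, losses were the larger share with lists as deposited (6.03% lost, 1.86% gained), with an overlap of 50% (3.04% and 1.91%), with all peaks as candidates (20.2% and 15.8%) and where −log10 q was 10 or more (1.61% and 1.46%). In males, gains were the larger share with lists of 44079 peaks (1.29% gained, 0.827% lost). The difference between the sexes was not tested, since each group had 1 pooled list, and the male groups had 2 libraries each and fewer tags.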

How the results depend on the processing

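No paired analysis was possible because each list was called on the pooled libraries of its group, and for the same reason no library could be left out. The number of peaks inside very long genes was 6999, 5248, 5577 and 4384 (control females, deleted females, control males, deleted males) with a limit of 500 kb. Their share of autosomal peaks, 10.6%, 10%, 10.6% and 9.88%, became 15.4%, 14.6%, 15.3% and 14.51% with 200 kb, 5.55%, 5.21%, 5.65% and 5.10% with 500 kb, 9.80%, 9.19%, 9.75% and 9.03% beyond 5 kb of gene ends, and 10.2%, 9.74%, 9.94% and 9.07% where −log10 q was 10 or more. In equal-length lists it was 10.2% in deleted females. Median fold there was 4.13, 3.65 and 4.43 in control females, deleted females and control males, and median width 326, 280 and 290 bp.

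The log2 ratio of the share of candidates gained in females inside very long genes over that of other peaks, 0.72, ranged from 0.08 to 1.22 over 13 alternatives: 1.20 where −log10 q was 10 or more, 1.22 with lists of 44079 peaks, 0.08 without a margin (all 88159 peaks as candidates) and 0.27 by pileup. Female losses, 0.56, gave 1.48 with lists of 44079 peaks and −0.55 by pileup. Male gains, 0.36, gave 1.43 where −log10 q was 10 or more, 1.21 with 44079 peaks and −0.45 by pileup. Male losses, 0.93, gave 1.51 with 44079 peaks, 0.38 without a margin and, reversed, −0.45 by pileup. The cause of the reversal was not tested. Gains shared by both sexes, 20, became 9 with a limit of 500 kb, 8 where −log10 q was 10 or more, 307 without a margin, 12 as deposited and 13 without chromosomes 5 and 7. Shared losses, 3, became 6 with 200 kb, 0 with 44079 peaks, 596 without a margin, 38 as deposited, 9 by fold enrichment and 21 with an overlap of 50%. The share of candidates lost ranged from 0.397% to 20.2% in females (0.637% reported, 6.03% as deposited, 3.04% with an overlap of 50%) and from 0.827% to 23.5% in males (1.89% reported, 4.63% with an overlap of 50%), and the share gained from 1.42% to 15.8% and from 0.701% to 16.4%. The relative peak number was below 0 in 10 of 10 alternatives in each sex, with −0.16 by fold enrichment in males. In females 3 of the intervals held 0, at −0.04 with 500 kb, −0.02 with 44079 peaks and −0.01 by pileup. The share of control female peaks in all 4 lists, 67.8%, was 73.1% with 44079 peaks, 49.5% as deposited and 62.0% with an overlap of 50%.

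The sparsest genes held 69.6% of female gains, 81.8% where −log10 q was 10 or more, 44.2% with lists of 44079 and 23.4% without a margin. They held 47.5% of male gains, and 18.2% without a margin. Breaking ties in reverse order and leaving out chromosomes 5 and 7 from the calls were alternatives chosen after seeing the data. The weakest peak used had −log10 q 1.39 in deleted males, whose list was not shortened, and 6.59 in control females, whose list was.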
